A study of Homo sapiens with 6 samples.

Results

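The genes described here are 5 that encode RNA-binding proteins of the cell nucleus: TAF15 and EWSR1 of the FET family, TARDBP, which encodes TDP-43, and the heterogeneous nuclear ribonucleoproteins HNRNPA1 and HNRNPA2B1. They were taken by symbol from a table of 59251 gene symbols, all 5 were found, and all 5 passed the filter on low counts. TAF15 was chosen by its counts, which were known to be lower in the mutant cells, and the others joined it as related genes with results of the same comparison in view. Their differences between the groups are therefore given as descriptions and without a test. The samples were total RNA of HCT116, a cell line from a human colorectal carcinoma. There were 3 libraries of wild-type cells (WT) and 3 of cells in which both alleles of eIF6 carry the change N106S (MUT). eIF6 is a factor that binds the large ribosomal subunit and keeps it from joining the small one. The mutant cells came from clones made by CRISPR/Cas9 editing. The labels state neither how many clones were sequenced nor whether replicates were separate cultures, so any p-value reflects no more than the variation among these samples, and this variation may be technical.

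FET proteins and hnRNPs bind RNA in the nucleus as it is transcribed, and they act in transcription, splicing and RNA transport. They carry RNA recognition motifs next to long flexible regions rich in glycine and a few other residues, through which they can gather into condensates. TAF15 was first found with TFIID, the complex that sets RNA polymerase II on promoters. EWSR1 is known for its gene fusions in Ewing sarcoma. TDP-43, HNRNPA1 and HNRNPA2B1 are splicing regulators, and TDP-43 limits the level of its own mRNA. In bulk RNA, fewer cells that express a gene and less RNA per cell cannot be told apart.

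Small structural RNAs (7SL, 7SK, RPPH1 and RMRP) took 62.7% to 84.0% of the counts, and 10252501 to 21984081 counts per library remained without them. MUT replicate 2 stood apart: annotated ribosomal RNA genes took 3.51% of its counts, against 1.08% in WT replicate 1 and 0.0886% to 0.233% in the other 4 libraries. Of 8 markers of colon epithelial carcinoma cells, 4 (EPCAM, KRT8, KRT18 and KRT19) were at an FPKM of at least 1 in every library. CDX2 lay at 0.68 to 1.22, CDH1 stayed at or below 0.13, VIL1 stayed at or below 0.02 and CEACAM5 had no count. Of 17 markers of other cell types 0 reached that level in every library, and their summed FPKM was 0.8 to 1.2 in WT and 1.23 to 2.14 in MUT. The largest part of this sum was CD68, at 0.41 to 0.68 in WT and 0.52 to 1.47 in MUT. The summed FPKM of the 8 colon markers was higher in MUT too, at 211 to 340 in WT and 325 to 505 in MUT, with overlap. FPKM values as a whole were shifted upward in MUT. The median gene lay at 0.33 on the log2(FPKM + 1) scale with a minimum of 1, and these sums are not corrected for that.

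The sequences in front of these genes are shown because 3 of the 5 start next to a gene on the opposite strand, which allows a member to be compared with its close neighbour. On GRCh38, HNRNPA2B1 (chromosome 7, 26189927 to 26200746, minus strand) starts 697 bases from CBX3, which encodes a heterochromatin protein. HNRNPA1 (chromosome 12, 54280726 to 54287087, plus strand) starts 604 bases from CBX5, another heterochromatin protein gene. EWSR1 (chromosome 22, 29268268 to 29300521, plus strand) starts 105 bases from RHBDD3, which encodes a rhomboid-like membrane protein. TAF15 (chromosome 17, 35809484 to 35847242, plus strand) and TARDBP (chromosome 1, 11012654 to 11030528, plus strand) had no tested gene starting within 1000 bases on the other strand.

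The RefSeq promoter table (GRCh38.p14) held 3 of the 5 genes, EWSR1, TARDBP and HNRNPA2B1, and also CBX3 and CBX5. The stretches below run 5′ to 3′ on the strand of the named gene and end at the base before its start. They span 250 bases, except for EWSR1, where only the 104 bases between its start and that of RHBDD3 are given. Capitals mark matches on either strand to the CCAAT box, to the GC box letters GGGCGG or to CGGAAG, letters known from sites of ETS factors; no 2 of these matches overlapped in these stretches. The HNRNPA2B1 stretch is chr7:26200747-26200996 (minus), the CBX3 stretch chr7:26201193-26201442 (plus), the CBX5 stretch, on the side facing HNRNPA1, chr12:54280123-54280372 (minus), and the EWSR1 stretch chr22:29268164-29268267 (plus).
HNRNPA2B1: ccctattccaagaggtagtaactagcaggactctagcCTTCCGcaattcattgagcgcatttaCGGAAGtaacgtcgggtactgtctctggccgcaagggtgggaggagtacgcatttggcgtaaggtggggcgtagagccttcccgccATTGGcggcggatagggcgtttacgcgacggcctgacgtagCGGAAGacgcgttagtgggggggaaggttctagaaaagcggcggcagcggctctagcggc
CBX3: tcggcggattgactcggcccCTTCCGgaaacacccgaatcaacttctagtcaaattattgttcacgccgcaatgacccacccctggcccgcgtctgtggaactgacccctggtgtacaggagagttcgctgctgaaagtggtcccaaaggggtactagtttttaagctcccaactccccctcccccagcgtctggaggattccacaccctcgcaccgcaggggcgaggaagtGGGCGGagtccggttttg
CBX5: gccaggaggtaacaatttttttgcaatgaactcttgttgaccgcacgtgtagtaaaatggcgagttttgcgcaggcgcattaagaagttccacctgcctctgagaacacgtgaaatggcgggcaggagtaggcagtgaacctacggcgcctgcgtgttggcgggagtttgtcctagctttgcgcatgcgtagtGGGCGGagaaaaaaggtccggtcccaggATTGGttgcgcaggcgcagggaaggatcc
EWSR1: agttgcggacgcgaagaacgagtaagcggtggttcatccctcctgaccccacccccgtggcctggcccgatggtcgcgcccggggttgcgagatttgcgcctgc

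The HNRNPA2B1 stretch held CGGAAG 3 times and CCAAT 1 time, and the CBX3 stretch held CGGAAG and GGGCGG 1 time each. The CBX5 stretch held GGGCGG and CCAAT 1 time each. Among 35116 upstream stretches of 250 bases in the table, 16.5% held CGGAAG, 32.0% CCAAT and 42.6% GGGCGG. The EWSR1 stretch held none of the 3. These matches describe letters only. HNRNPA2B1 had 24 CpG dinucleotides in its stretch, CBX5 17 and CBX3 16, where the median over the table was 11. TARDBP, whose stretch is not printed, had 12, and the EWSR1 stretch had 12 in only 104 bases.

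TAF15 was the lowest of the 5 in MUT relative to WT. It was measured at 6.55, 5.92 and 7.06 CPM (counts scaled to a common library total, with TMM factors) in WT and at 3.17, 3.01 and 2.83 CPM in MUT. Every MUT library lay below every WT library, and the MUT values were close together. The means were 6.51 ± 0.57 and 3.004 ± 0.17 CPM (SD, n = 3 each), with a log2 fold change of -1.11 (SE 0.12), which is 2.16-fold less in MUT. Of the 14808 genes tested, 212 had a lower value. The gene is not abundant in these libraries: its counts were 452, 443 and 305 in WT and 238, 293 and 169 in MUT. The smallest, 169, has a 95% Poisson interval of 144 to 196, which covers counting error only.

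HNRNPA1, an abundant hnRNP that regulates splicing and shuttles to the cytoplasm, was measured at 103, 104 and 105 CPM in WT and at 55.1, 61.1 and 59.3 CPM in MUT. The groups lay far apart and the WT libraries differed by little. The means were 104 ± 0.88 and 58.5 ± 3.04 CPM (SD, n = 3 each), and the log2 fold change was -0.83 (SE 0.13), or 1.78-fold less in MUT. HNRNPA2B1, which binds RNA in splicing and transport, was measured at 42.3, 36.0 and 40.0 CPM in WT and at 26.05, 26.05 and 30.1 CPM in MUT. Again no MUT library reached the WT range. The log2 fold change was -0.53 (SE 0.12), or 1.44-fold less.

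EWSR1, the other FET gene described here, was measured at 14.9, 14.3 and 13.2 CPM in WT and at 14.1, 17.6 and 13.7 CPM in MUT. The groups overlapped, and the highest value was that of MUT replicate 2. The log2 fold change was 0.10 (SE 0.13), with an interval of 2 standard errors from -0.17 to 0.36, and was -0.01 without MUT replicate 2. TARDBP was measured at 5.36, 5.999 and 4.77 CPM in WT and at 4.30, 5.70 and 5.63 CPM in MUT. Its groups overlapped too, with a log2 fold change of -0.05 (SE 0.15) and an interval of 2 standard errors from -0.34 to 0.24.

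**Figure D1:**
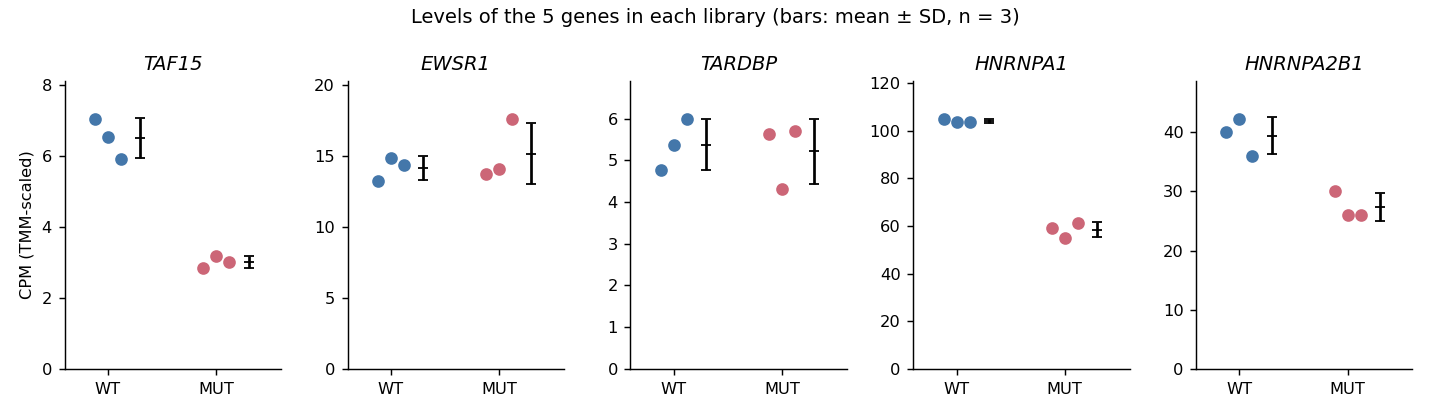
CPM (TMM-scaled, vertical axis, 1 panel per gene with its own scale from 0) in the 3 WT (blue) and 3 MUT (red) libraries; points are libraries, and the bar beside them is the mean with its SD. TAF15, HNRNPA1 and HNRNPA2B1 show no overlap between groups, whereas EWSR1 and TARDBP do.

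Of the 5 genes, 2 (TAF15 and HNRNPA1) were among the genes with an adjusted p below 0.05 in edgeR's quasi-likelihood test, where 1.91% of all tested genes were called and 0.925% were called lower. For 3 of the 5 the groups did not overlap, all lower in MUT, where 26.1% of all genes did not overlap and 13.4% did so with MUT lower. Since the 5 were picked with this comparison known, these counts describe them and carry no support. As a limit, HNRNPA1 was no longer among the called genes without any 1 library other than MUT replicate 2. In those runs the number of all genes called fell from 283 to between 27 and 61. Without MUT replicate 2 it was 442. HNRNPA1 was called in 10 of 20 alternatives. TAF15 was called in 15 of the 18 alternatives where it had a value, but not with library size alone or on the FPKM scales. DESeq2 called 3 of the 5, HNRNPA2B1 among them, where it called 5.16% of all genes and 2.78% as lower.

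Scaling bears on the direction of HNRNPA2B1 and TARDBP. With scaling to the plain library total, all genes had a median of 0.54 on the log2 scale, and there TAF15 lay at -0.55, HNRNPA1 at -0.27, HNRNPA2B1 at 0.03, TARDBP at 0.51 and EWSR1 at 0.68. Relative to that median they lay at -1.09, -0.80, -0.51, -0.03 and 0.14, close to their values under TMM. On the log2(TPM + 1) scale HNRNPA2B1 lay at 0.0098 against a median of 0.36.

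Ratios between genes within a library do not depend on such scaling. Counts of TAF15 relative to EWSR1 were 0.440, 0.413 and 0.534 in WT and 0.225, 0.171 and 0.207 in MUT. The ratio was lower in every MUT library, by a difference of -1.203 on the log2 scale. Relative to TARDBP the ratios were 1.22, 0.987 and 1.48 in WT and 0.737, 0.528 and 0.503 in MUT. TAF15 thus had about as many or more counts than TARDBP in WT and fewer in all MUT libraries. Relative to HNRNPA2B1 the ratios were 0.155, 0.164 and 0.177 against 0.122, 0.115 and 0.0941, again without overlap. Relative to HNRNPA1 they were 0.0633, 0.0571 and 0.0672 against 0.0575, 0.0493 and 0.0478. Here the groups touched, as the value of MUT replicate 1 lay just above that of WT replicate 2.

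**Figure D2:**
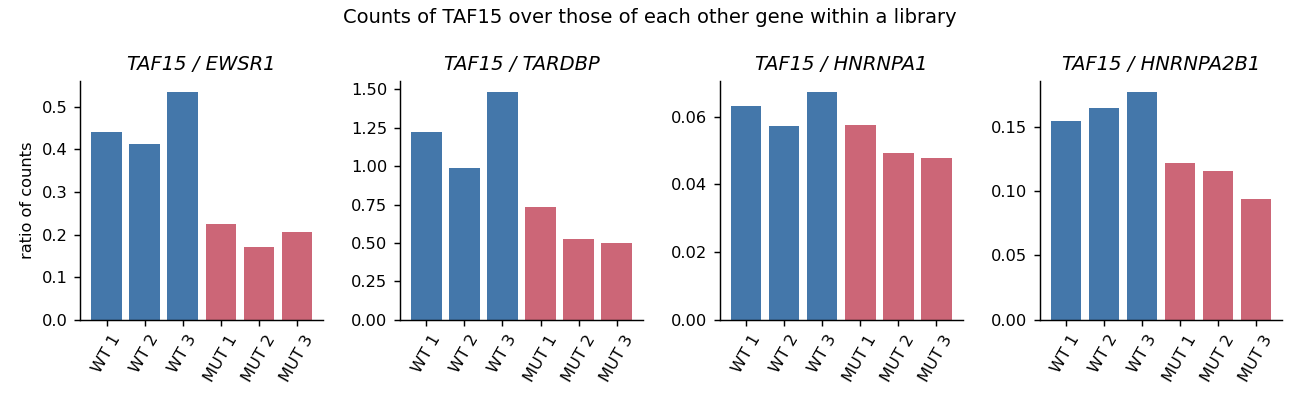
Ratio of TAF15 counts to counts of each other gene (vertical axis from 0, own scale per panel) in each WT (blue) and MUT (red) library. The MUT bars lie below the WT bars for EWSR1, TARDBP and HNRNPA2B1, while for HNRNPA1 MUT replicate 1 (0.0575) exceeds WT replicate 2 (0.0571).

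Per transcript length, HNRNPA1 was the most abundant of the 5 in every library. Its FPKM was 62.8, 81.3 and 51.6 in WT and 37.3, 76.1 and 47.2 in MUT, ranks 396 to 435 among all symbols in WT and 538 to 608 in MUT. HNRNPA2B1 followed, with an FPKM of 13.99 to 20.7 in WT and 12.01 to 21.4 in MUT (ranks 941 to 1007 and 1121 to 1282). EWSR1 came next at 4.81 to 7.88 and 6.88 to 18.5 (ranks 1574 to 1871 and 1393 to 1830). In WT these ranges did not overlap, but in MUT those of EWSR1 and HNRNPA2B1 did. These FPKM values are not TMM-scaled, and the median gene lay 0.33 higher in MUT on log2(FPKM + 1) with a minimum of 1. The ranges therefore give the order of genes within a library and not the difference between the groups.

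The order of the remaining pair differed between libraries. TAF15 had an FPKM of 2.47, 3.06 and 2.29 in WT and 1.4, 2.38 and 1.5 in MUT. TARDBP had an FPKM of 1.43, 2.11 and 0.99 in WT and 1.22, 2.93 and 1.91 in MUT. TAF15 stood above TARDBP in all 3 WT libraries, with no overlap of the ranges, and in MUT replicate 1, but below it in MUT replicates 2 and 3. By rank among all symbols, TAF15 stood at 2962 to 3270 in WT and at 4700 to 4996 in MUT, and TARDBP at 4034 to 4898 and 4322 to 5188.

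Across the 6 libraries, log2 CPM of TAF15 correlated with HNRNPA1 at a Pearson r of 0.98 and with HNRNPA2B1 at 0.93, and these 2 correlated at 0.94. With EWSR1 and TARDBP the r of TAF15 was -0.35 and 0.02. These values describe 6 libraries in 2 groups, and the high ones follow the difference between the groups. Among the 1400 genes whose mean log2 CPM was 4 or more, the most like TAF15 were ARL6IP4 (r = 0.999), PRDX2 (0.993) and TUBB3 (0.988). The tubulin gene TUBB3 fell by 2.45 on the log2 scale (edgeR adjusted p = 0.000274, and 6.2e-51 to 0.352 over its alternatives) and ARL6IP4, which encodes a nuclear speckle protein, by 0.55 (edgeR adjusted p = 0.0382, from 0.0030 to 0.998 over its alternatives). The call of ARL6IP4 was lost without any 1 library other than MUT replicate 2, in runs where far fewer of all genes were called. PRDX2, a peroxide-reducing enzyme, had a value of -0.41 and did not pass in edgeR (adjusted p = 0.103) but did in DESeq2 (adjusted p = 0.0291, the lowest of its alternatives, which ran up to 0.827). ARL6IP4, PRDX2 and TUBB3 were picked for their likeness to TAF15, which was chosen as lower in MUT. Their p-values therefore describe them and carry no support.

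Genes next to the members were compared by position. The 3 nearest tested genes on either side of TAF15 ran from -0.94 to 1.10 on the log2 scale, and 3 of 6 were below 0. RDM1, a recombination-related gene, was lowest, with 1.13, 1.51 and 1.41 CPM in WT and 0.892, 0.657 and 0.553 in MUT. Its log2 fold change of -0.94 (SE 0.24) did not pass in edgeR (adjusted p = 0.0839). It did in DESeq2 (adjusted p = 0.0450) and in edgeR without the filter on low counts (adjusted p = 0.0118), and its alternatives ran up to 0.674. MMP28, a matrix metalloproteinase gene, had -0.53 at 0.302 to 0.548 CPM. AP2B1, a subunit of the clathrin adaptor complex, had 0.17. Around the other 4 genes, 1 of 24 neighbours was called (1.91% of all genes). This was PEX14, a peroxisomal import gene that starts 537704 bases from the start of TARDBP. PEX14 rose by 0.93 (SE 0.10, edgeR adjusted p = 0.00614), a call lost without WT replicate 1 (edgeR adjusted p = 0.0520, over its alternatives from 1.24e-06 to 0.425). Neighbours were the nearest tested genes, and the farthest, OSBPL3, starts 1218901 bases from HNRNPA2B1.

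The genes that start back to back with a member were set beside it. CBX3 was measured at 25.9, 25.8 and 21.8 CPM in WT and at 24.6, 31.4 and 23.8 CPM in MUT, with a log2 fold change of 0.12 (SE 0.15) and -0.0011 without MUT replicate 2. Counts of HNRNPA2B1 relative to CBX3 were 1.63, 1.40 and 1.83 in WT and 1.06, 0.829 and 1.27 in MUT, lower in every MUT library. CBX5 was measured at 1.78, 1.58 and 3.01 CPM in WT and at 2.29, 1.93 and 3.47 CPM in MUT, with overlap. Its log2 fold change was 0.28 (SE 0.29), 0.0066 without MUT replicate 3 and 0.61 without WT replicate 3. Counts of HNRNPA1 relative to CBX5 were 58.1, 65.8 and 34.9 in WT and 24.1, 31.6 and 17.1 in MUT, again lower in every MUT library. RHBDD3 was measured at 2.33, 1.99 and 2.499 CPM in WT and at 3.12, 2.91 and 2.65 in MUT (0.35, SE 0.15), and counts of EWSR1 relative to it overlapped between the groups. In edgeR's test the adjusted p of CBX3, CBX5 and RHBDD3 was 0.724, 0.656 and 0.225.

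**Figure D3:**
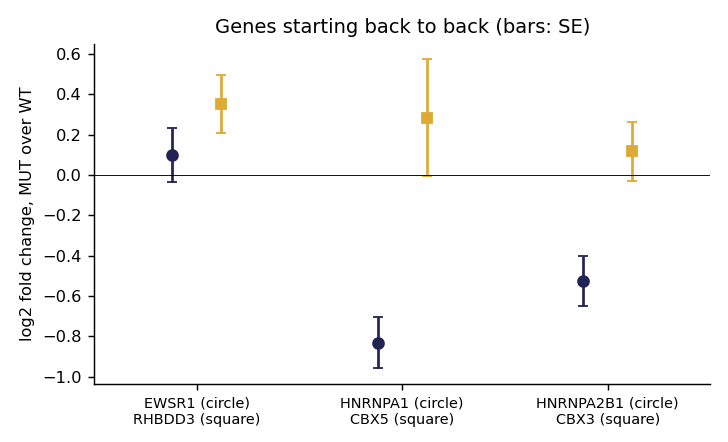
Log2 fold change of MUT over WT (vertical axis, with SE) for 3 members (circles) and the gene that starts next to each on the other strand (squares). HNRNPA1 (-0.83) and HNRNPA2B1 (-0.53) lie below 0, while CBX5 (0.28, or 0.0066 to 0.61 with 1 library left out) and CBX3 (0.12, or -0.0011 to 0.19) have values above it in the fit shown.

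The mix of transcripts of a gene was read from a quantity that the choice of members did not use. Counts divided by FPKM and by the library total give the effective length of a gene, the mean length of its transcripts as the authors' estimator weighted them. TAF15 had 2088, 2088 and 2083 bases in WT and 2091, 2089 and 2087 in MUT. Its length was nearly constant. TAF15 has 7 protein-coding transcripts of 547 to 2191 bases in GENCODE release 29, but 2 curated mRNA transcripts in RefSeq. Which annotation the authors' estimator used is not given. If it held few transcripts of like length, the length could hardly vary. Such constancy was common: 25.7% of the 4401 genes tested had a smaller ratio of the longest to the shortest length, and the median ratio was 1.04. A constant length gives no sign of a shift between short and long transcripts and says nothing of transcripts of equal length.

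EWSR1 varied most, with 1623, 1964 and 1856 bases in WT and 1919, 1573 and 2002 in MUT. Its shortest lengths were those of MUT replicate 2 and WT replicate 1, the libraries with the most ribosomal RNA. HNRNPA1 was shortest in WT replicate 1 as well (1299 bases), followed by MUT replicate 2 (1327), against 1376 to 1388 in the others. The part of ribosomal RNA content in these lengths was not tested. For EWSR1, 89.1% of the 4401 genes tested had a smaller ratio of the longest to the shortest length.

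HNRNPA2B1 had 1988, 1876 and 1931 bases in WT and 2032, 2016 and 2123 in MUT, longer in every MUT library. Of all tested genes, 8.88% had lengths that did not overlap between the groups, in either direction. The difference was 0.07 on the log2 scale (SE 0.03) and did not pass the threshold in limma (adjusted p = 0.343, over 4401 genes). It was 0.046 without WT replicate 2 and 0.11 in the 4 libraries lowest in ribosomal RNA, and its adjusted p in limma was at least 0.407 in every alternative run. EWSR1 (-0.01, SE 0.12), HNRNPA1 (-0.00087, SE 0.03) and TAF15 (-0.02, SE 0.01) did not pass either, with adjusted p-values of 0.972, 0.990 and 0.373 in limma. These differences are after each library was scaled to its median gene. Unscaled, the mean length of TAF15 was 2086 bases in WT and 2089 in MUT, so its sign depends on the scaling. Limma called 0 genes, 0% of those tested, and 170 had an unadjusted p below 0.05; no other tool was run on lengths. TARDBP, at 2952, 3069 and 3254 bases in WT and 3303, 3214 and 3259 in MUT, was left out of the test because its FPKM was below 1 in WT replicate 3.

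**Figure D4:**
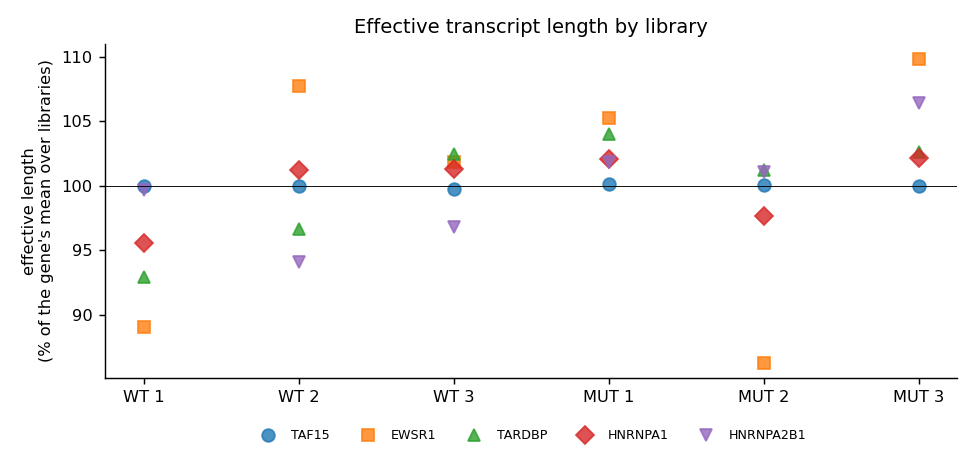
Effective length of each gene in each library as a percentage of its mean over the 6 libraries (vertical axis; the axis does not start at 0), with 1 symbol per gene. TAF15 stays at its mean, and EWSR1 is lowest in WT replicate 1 and MUT replicate 2.

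Reads of HNRNPA1 can be split among many copies. The table held 76 rows of pseudogenes or copies named after it, 22 of them with counts. They took 15.1%, 12.5% and 11.3% of the summed counts in WT and 11.4%, 22.2% and 14.05% in MUT. The share was highest in MUT replicate 2, where the copy HNRNPA1L2 had 863 counts against 120 to 462 elsewhere. With the copies added, HNRNPA1 had a log2 fold change of -0.78, against -0.83 by its own row. TARDBP had 5 such rows, which took at most 3.58% of its sum, and 0 rows were named after TAF15, EWSR1 or HNRNPA2B1.

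Related genes were described by lists chosen with earlier results of these data known. Over all tested genes the median log2 fold change was -0.01, and 51.3% lay below 0. Of 26 other hnRNP genes, 19 had values below 0 and 7 above, with a median of -0.23, and 0 were called by edgeR, whereas DESeq2 called 1 higher and 1 lower (DESeq2 called 5.16% of all genes, 2.38% higher and 2.78% lower). Relative to all genes the median ran from -0.26 to 0.14 over 20 alternatives, above 0 in 1 of them, the FPKM scale without a minimum. Their range, from -0.69 (HNRNPH2, SE 0.24) to 0.46 (HNRNPUL1), did not reach the values of TAF15 and HNRNPA1. Since TAF15 and HNRNPA1 were picked with this comparison known, this is a description and carries no support. The groups did not overlap for 8 of the 26, 6 of them lower in MUT (26.1% and 13.4% of all genes). PCBP2, an abundant poly(C)-binding member, had -0.30 (SE 0.17) and did not pass (edgeR adjusted p = 0.369).

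The U1 snRNP and Sm protein genes, whose products recognise and build the splicing machinery, had 9 of 10 values below 0 and a median of -0.29, which relative to all genes ran from -0.39 to 0.18 over the alternatives and was above 0 in 1 of 20. Their groups did not overlap for 7 of 10, all lower in MUT, where 26.1% of all genes did not overlap and 13.4% were lower. EdgeR called 0 (1.91% of all genes) and DESeq2 1 (5.16%). SNRPD2, the most abundant of them per length, had -0.42 (SE 0.21, edgeR adjusted p = 0.314). Among 13 SR splicing factor genes 10 were below 0, with a median of -0.11 (relative to all genes -0.16 to 0.21 over the alternatives, above 0 in 1 of 20), and 0 were called by edgeR and 1 by DESeq2. SRSF9 had -0.35 (SE 0.13, edgeR adjusted p = 0.178). Of 12 genes whose splicing is known to depend on TDP-43, 5 were below 0 and 7 above, with a median of 0.03 (relative to all genes -0.07 to 0.13 over the alternatives, with the sign kept in 17 of 20). EdgeR called 0 and DESeq2 1. RANBP1, the most abundant of these, had -0.19 (SE 0.13, edgeR adjusted p = 0.472). The values ran from -0.33 (GPSM2) to 1.48 (EPB41L4A, SE 0.32), the latter at only 0.185 to 0.687 CPM. Counts per gene do not measure splicing.

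Among 12 genes of paraspeckles, nuclear bodies built on the noncoding RNA NEAT1, 6 were below 0, the median was -0.04 and 1 gene was called by edgeR, where 1.91% of all genes were. Relative to all genes the median ran from -0.11 to 0.24 over the alternatives, kept its sign in 15 of 20 and was 0.08 without MUT replicate 2. NUDT21, which encodes a subunit of a 3′ end processing factor, fell from 16.6, 14.1 and 13.7 CPM in WT to 8.82, 8.16 and 8.38 in MUT. Its log2 fold change was -0.81 (SE 0.12, edgeR adjusted p = 0.0182, and 2.02e-05 to 0.734 over its alternatives). The call was lost without any 1 library other than MUT replicate 2, in runs where far fewer of all genes were called. Among 14 nuclear import receptors and arginine methyltransferases, which carry FET proteins and hnRNPs into the nucleus or modify them, 4 were below 0, the median was 0.11 and 1 was called by edgeR (1.91% of all genes). Relative to all genes the median ran from -0.04 to 0.25 over the alternatives and was below 0 in 1 of 20. PRMT5, which methylates arginines of Sm and other proteins, rose from 16.7, 16.8 and 19.5 CPM to 27.3, 35.1 and 28.5 (0.78, SE 0.14, edgeR adjusted p = 0.0301, and 2.91e-05 to 0.633 over its alternatives). This call too was lost without any 1 library other than MUT replicate 2, in the same runs with fewer calls. PRMT1, the main methyltransferase of FET proteins, had -0.17 (SE 0.12, edgeR adjusted p = 0.479).

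The other lists lay near the median of all genes. Among 16 stress granule genes 7 were below 0 and 9 above, with a median of 0.06 (relative to all genes -0.03 to 0.32 over the alternatives, below 0 in 1 of 20), and edgeR and DESeq2 called 0 each. YBX1, the most abundant, had 0.19 (SE 0.19, edgeR adjusted p = 0.646). Among 16 TFIID subunit genes, the complex TAF15 was found with, 8 were below 0 and 8 above, with a median of -0.03 and a range from -0.31 (TBP) to 0.60 (TAF3). Relative to all genes this median ran from -0.07 to 0.19 over the alternatives and kept its sign in 13 of 20. EdgeR and DESeq2 called 0 each. At an unadjusted edgeR p below 0.05, 19.6% of all tested genes passed, as did 5 of the 26 other hnRNP genes, 4 of the 10 U1 snRNP and Sm protein genes, 2 of the 13 SR factor genes, 2 of the 12 genes with splicing that depends on TDP-43, 3 of the 16 stress granule genes, 1 of the 16 TFIID genes, 3 of the 12 paraspeckle genes and 3 of the 14 import receptor and methyltransferase genes. The groups did not overlap for 3 of the 12 paraspeckle genes, 3 of the 14 import receptor and methyltransferase genes, 2 of the 16 stress granule genes, 4 of the 16 TFIID genes, 3 of the 13 SR factor genes and 4 of the 12 genes with splicing that depends on TDP-43, against 26.1% of all genes.

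**Figure D5:**
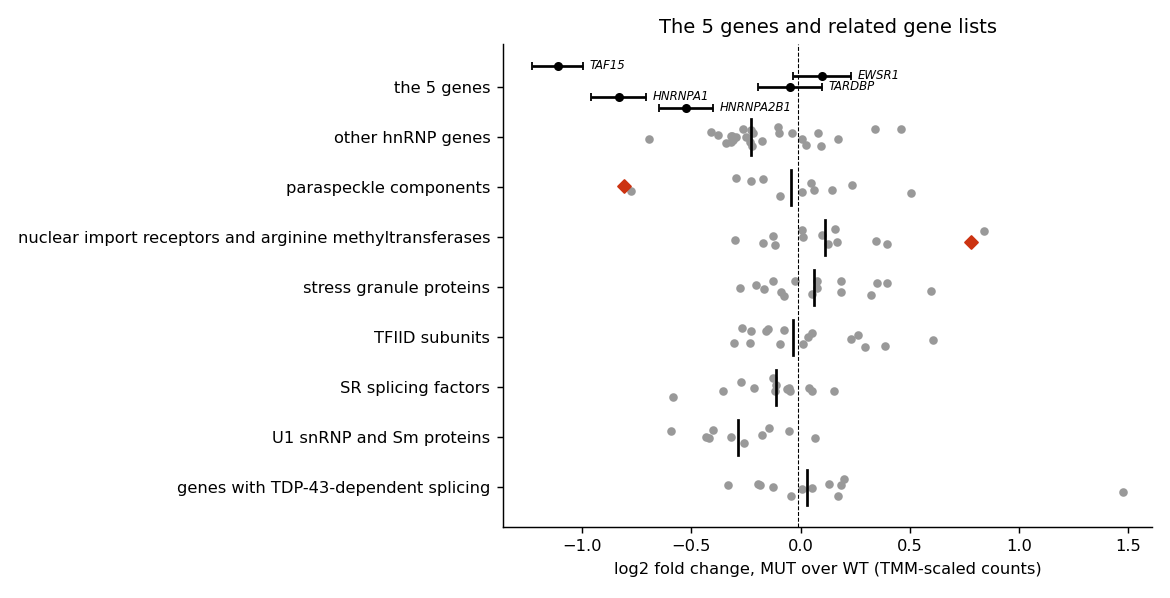
Log2 fold change of MUT over WT (horizontal axis) for the 5 genes, with SE, and for the genes of 8 lists (1 point per gene; red diamonds passed edgeR's test, black bars are list medians, the dashed line is the median of all genes). TAF15, which was chosen as lower in MUT, lies to the left of every gene in the lists, and the diamonds are NUDT21 (-0.81) and PRMT5 (0.78).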

How the data were processed

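RNA of 3 WT and 3 MUT libraries was measured, and groups came from the sample titles. The authors deposited expected counts, all of them whole numbers so that rounding changed none, and FPKM and TPM values, which the authors scaled for depth and transcript length. Per the submitters' processing notes, the tools were RSEM 1.2.28, STAR 2.5.2b, DESeq2 1.42.0 and FastQC 0.12.1 (roles not given) and the build was hg38 (GRCh38); the annotation is not given in the sources used here. Where reads fit near-identical genes, estimated counts divide them.

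The whole count table was analysed in R 4.3.3 with edgeR 4.0.16: filterByExpr (minimum count 10), TMM scaling and the quasi-likelihood F-test of MUT against WT, with Benjamini-Hochberg adjustment over 14808 genes and a threshold of 0.05. Effective lengths were tested with limma 3.58.1 over 4401 genes with an FPKM of at least 1 and 50 counts in every library, after scaling each library to its median gene. Total counts per library ranged from 53986494 to 87656970. Libraries of a group differed beyond sampling noise. Procedures were tested on simulated data.

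The members and lists were chosen with earlier results of these data known. Named genes are the members, for each list up to 3 called genes by smallest p and up to 2 more with the highest mean FPKM, rows of copies, neighbours by position and the 3 genes most like TAF15. The genes at the ends of a list's range were named after their values were seen. Positions and symbols are from RefSeq (GRCh38.p14), strands from GENCODE release 29. Alternatives were other scalings, filters, tools (DESeq2 1.42.0, limma), units, a replicate block and leaving out libraries. Ribosome profiling was not analysed here. Not every neighbouring gene is reported here. No covariate was used in the main fit, and samples were treated there as unpaired.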

Additional observations from a re-analysis of the deposited data

How the results depend on the processing

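Values on other scales are relative to the median of all genes there. The values of the 5 genes describe them, since they were chosen on this comparison. TAF15 and TARDBP fell under the minimum on the TPM scales and have no value there. On the log2(FPKM + 1) scale without a minimum, TAF15 lay at -0.43, EWSR1 at 0.51, TARDBP at 0.22, HNRNPA1 at -0.35 and HNRNPA2B1 at -0.12, and with a minimum of 1 TAF15 lay at -0.72 and HNRNPA1 at -0.65. On log2(TPM + 1) HNRNPA1 lay at -0.58 and HNRNPA2B1 at -0.35, and on log2(TPM + 0.1) HNRNPA1 at -0.72; with its copies added HNRNPA1 lay at -0.78. Leaving out 1 library gave TAF15 from -1.15 to -1.04, EWSR1 from -0.0070 to 0.16, TARDBP from -0.11 to 0.07, HNRNPA1 from -0.84 to -0.79 and HNRNPA2B1 from -0.60 to -0.45. The 4 libraries lowest in ribosomal RNA, an alternative added after seeing the data, gave TAF15 -1.08, HNRNPA1 -0.85 and HNRNPA2B1 -0.42.

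Of all genes, 283 were called in edgeR, 108 by library size alone (95 of them higher, against 146 of 283), 1195 without a filter, 462 with a minimum of 1 CPM, 764 by DESeq2, 552 in a robust fit, 0 and 8 on the TPM scales with 1 and 0.1 added, 7 and 1 on the FPKM scales with and without a minimum, and 27 to 442 with 1 library left out (442 without MUT replicate 2). The cause of these differences was not tested. With the replicate block 296 genes were called, TAF15 lay at -1.11 and HNRNPA1 at -0.83. Same-numbered libraries had correlations of -0.29, -0.04 and 0.22 between their deviations from the group means. These had no common sign, and with 3 libraries per group they cannot settle whether equal numbers mark paired samples. The block ended the call of ARL6IP4 (adjusted p = 0.0516, over its alternatives from 0.0030 to 0.998) and of no other gene named.

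Some values changed sign, among them PRDX2 (-0.41 by edgeR), SRSF9 (-0.35) and PCBP2 (-0.30), and the cause was not tested. Without a minimum on the FPKM scale PRDX2 lay at 0.078, PCBP2 at 0.18, PRMT1 at 0.32, SRSF9 at 0.14 and RANBP1 at 0.25; PRMT1 lay at 0.056 on log2(TPM + 1) and 0.021 on log2(FPKM + 1), and CBX3 ran from -0.0011 (without MUT replicate 2) to 0.19 with 1 library left out. Length differences turned positive for EWSR1 without scaling (0.010) and in the 4 libraries (0.026), and for HNRNPA1 without scaling (0.018) and with a minimum FPKM of 5 (0.0070). With 1 library left out they ran from -0.080 to 0.097 for EWSR1 and from -0.022 to 0.020 for HNRNPA1. Depth limits TAF15 and TARDBP most, at 169 to 555 counts per library.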
